A study of Mus musculus with 39 samples.

Results

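The last step of mouse development before implantation was examined here by comparing untreated blastocysts with untreated morulae across all genes. The 3 arrays labelled Blastocyst_control and the 3 labelled Morula_control were chosen by their titles, which makes 6 of the 39 arrays of the series. The series was made to study inhibitors of histone deacetylases, T247 and MGCD0103, in early embryos, and 15 of its arrays held embryos exposed to one of them. These 15 arrays were not used here. The other 24 arrays held untreated oocytes and embryos of 8 stages, with 3 arrays for each stage.

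Both groups had the strain label B6D2F1 x ICR, which the methods give as eggs of superovulated B6D2F1 females fertilized in vitro with sperm of ICR males, and both are named as controls. Fertilization and culture took place in human tubal fluid medium with bovine serum albumin. Each array held RNA of 100 pooled embryos, so that an array gives an average over embryos and over the cell types within them. Collection times were given for the early cleavage stages, and those of morulae and blastocysts were not given in the sources used here. The methods describe the samples of a stage as independent.

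In a morula the blastomeres compact into a ball, and outer and inner cells begin to differ. In a blastocyst the outer cells form the trophectoderm, an epithelium that pumps fluid into the cavity and later builds the placenta, and it surrounds an inner cell mass. The inner cell mass separates into epiblast, which gives rise to the embryo proper, and primitive endoderm, which faces the cavity and later lines the yolk sacs. In RNA of whole embryos, more cells of a type and more RNA per cell cannot be told apart.

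Signals are given on the log2 scale after smooth quantile normalization, a scaling that brings the arrays of one stage to a shared distribution and allows stages to differ. A log2 fold change (LFC) is the mean of the 3 blastocyst arrays minus the mean of the 3 morula arrays, so that 1 unit is a doubling. A gene was called differentially expressed (DEG) at an LFC of at least 1 in size with an adjusted p below 0.05 in limma, and "rose" and "fell" are used below for such genes. Where a gene that rose or fell is given without an adjusted p, that value was below 0.05 as well. Where a gene was well above background on no array of one stage, only a lower bound of its fold in the main processing is given. The adjusted p was at most 0.00354 in each such case named. A spot counts as well above background by the scanner software's own flag. Between 45.6 and 49.8% of the probes were well above background on the morula arrays and between 50.1 and 53.0% on the blastocyst arrays, and 0 spots were saturated. The correlation over genes was 0.991 on average between morula arrays, 0.986 between blastocyst arrays and 0.906 between an array of one stage and one of the other.

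Among 14230 genes tested, 3329 genes rose (23.4%) and 1164 genes fell (8.18%). The counts of the gene lists below are to be read against these shares. In all, 31.6% were DEGs, and 74.1% of the DEGs were higher in blastocysts. This split depended on the scaling. With each array scaled to its 75th percentile, 2242 genes rose (15.8%), 2174 genes fell (15.3%) and 50.8% of the DEGs were higher in blastocysts, and with quantile normalization 2402 genes rose (16.9%), 1559 genes fell (11.0%) and 60.6% were higher. The median LFC of all genes was 0.27, against −0.15 and 0.01 under the other scalings, and the LFC of a gene or list is to be read relative to it. Under all 3 scalings, 2222 genes rose and 1152 genes fell, and 0 genes were called in opposite directions.

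The large changes went mostly upward. An LFC above 3 was reached by 597 genes that rose, and a fall of the same size by 129 genes. Of the genes tested, 585 (4.11%) were well above background on every blastocyst array and on no morula array, and 95 (0.668%) the other way round. The arrays of the stages did not overlap in 4475 of the 4493 DEGs, whereas 44.4% of all genes tested lay higher without overlap and 22.6% lower. Array 1 of each stage lay on slide 1, array 2 on slide 2 and array 3 on slide 3, and 4488 of the 4493 DEGs differed in the same direction on all 3 slides. This follows from the selection, since the DEGs were called on these same arrays and stages without overlap differ in the same direction on every slide.

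**Figure D1:**
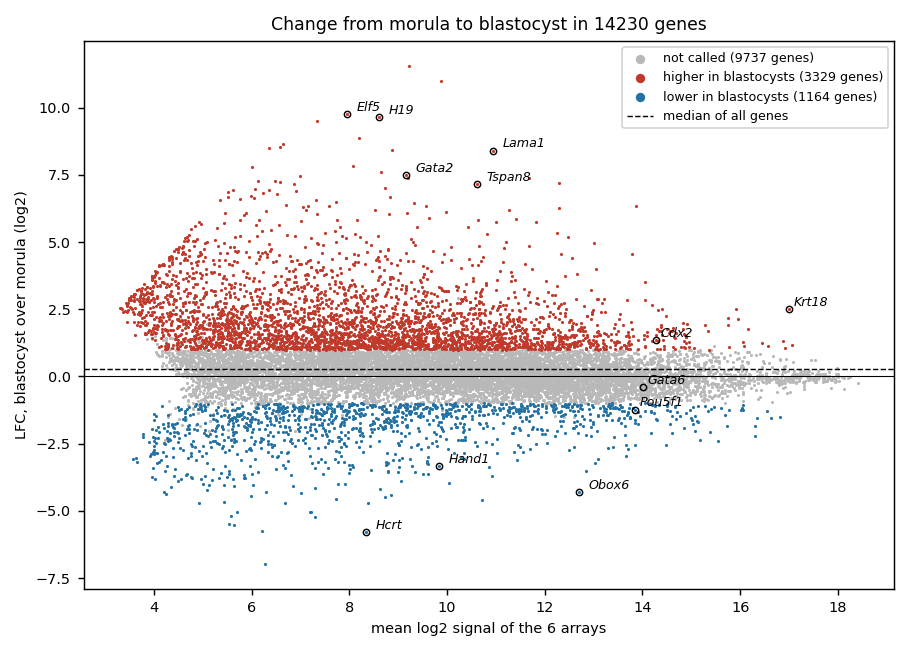
LFC of blastocysts over morulae (vertical axis, log2) against the mean log2 signal of the 6 arrays (horizontal axis) for the 14230 genes tested, with the 3329 genes that rose in red, the 1164 that fell in blue and the rest in grey. The dashed line is the median of all genes, 0.27, and the labelled genes range from Elf5 and H19 at the top to Hcrt at the bottom. For genes dark in morulae, such as Elf5 and H19, the plotted LFC depends on the background and only a bound of the fold is given in the text.

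Of 15 tested trophectoderm transcription factors, 9 rose, 1 fell and 5 did not pass the test, with a median LFC of 1.77 against 0.27 for all genes. Elf5, an Ets factor of trophoblast stem cells, gave log2 signals of 2.84, 3.03 and 3.33 in morulae and 13.30, 12.27 and 12.94 in blastocysts. No morula array had it well above background, and its blastocyst signal was at least 343-fold higher (adjusted p = 1.14e-05). Gata2, a zinc-finger factor of the trophoblast, stood at 4.29, 6.16 and 5.78 in morulae, 2 of these 3 arrays being well above background, and at 13.06, 12.81 and 12.85 in blastocysts (LFC 7.50 ± 0.46 SE, adjusted p = 6.40e-05).

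Cdx2, the caudal homeobox factor that sets up the trophectoderm, had log2 signals of 13.40, 13.86 and 13.52 in morulae and 15.14, 14.94 and 14.75 in blastocysts. The stages did not overlap, and the LFC was 1.35 ± 0.17 (SE, adjusted p = 0.000803), which fell to 0.91, short of the threshold, when arrays were scaled to the 75th percentile. Gata3, which acts beside Cdx2, rose from 13.25, 13.66 and 13.32 to 15.29, 15.19 and 15.04, an LFC of 1.77. Eomes, a T-box factor of the trophoblast, rose from 8.84, 9.83 and 8.39 to 12.91, 13.52 and 13.34, with an LFC of 4.24. The gene for Id2, an inhibitor of helix-loop-helix factors, rose by an LFC of 5.34.

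Members of the list did not move as a block. Tead4, the DNA-binding partner of Yap1 that acts upstream of Cdx2, differed by an LFC of 0.06 (adjusted p = 0.790). Its morula signals of 12.32, 12.02 and 12.08 overlapped with the blastocyst signals of 12.47, 12.30 and 11.84. Hand1, a factor of later trophoblast giant cells, fell from 11.65, 11.38 and 11.45 to 7.52, 8.87 and 8.10, a 10.1-fold decrease (LFC −3.33, adjusted p = 0.000287).

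The epithelial markers of the trophectoderm rose nearly throughout, with 17 of 19 tested members higher, 0 lower and a median LFC of 2.51. Krt8 and Krt18, the keratin pair of simple epithelia, were well above background on all 6 arrays and rose. Krt8 went from 14.65, 14.74 and 14.57 to 17.11, 17.06 and 17.31 (LFC 2.51 ± 0.12 SE, adjusted p = 3.57e-05). Krt18 went from 16.00, 16.05 and 15.18 to 18.19, 18.29 and 18.29 (LFC 2.52). Plac1, a placental gene, rose most in this list, with an LFC of 7.62 and a signal well above background on 2 of 3 morula arrays. Tspan8, a tetraspanin, rose by 7.15, and the stress-responsive Ndrg1 by 6.27. Among 19 keratin genes tested, 8 rose and 0 fell, with Krt19 at 5.56 and Krt42 at 5.16, the latter well above background on 1 of 3 morula arrays.

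**Figure D2:**
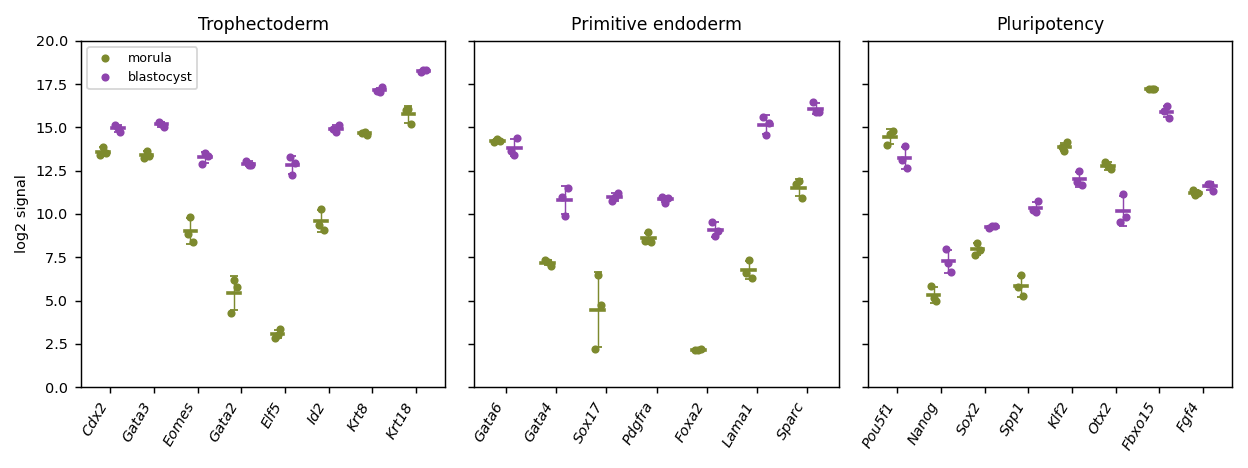
Log2 signal on each array (points, morula in green and blastocyst in purple) with the mean (bar) and SD (error bar) of 3 arrays, for 8 trophectoderm, 7 primitive endoderm and 8 pluripotency genes. Elf5, Lama1 and Gata2 show the widest gaps, Krt8 and Krt18 rise without overlap, and Gata6 and Fgf4 overlap between the stages; levels are not comparable between genes.

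The primitive endoderm list had the largest share of rising members among the lists, 21 of 22 tested (95.5%, against 23.4% of all genes), with 0 lower and a median LFC of 2.59. Of these members, 3 were well above background on no morula array. They were tested through the blastocyst arrays alone, which favors a rise. The lists were chosen with earlier results of these data known, so their ranking is a description only. Sox17, a Sox factor of the endoderm, lay at 2.18, 6.48 and 4.75 in morulae, well above background on 1 of these arrays, and at 10.74, 10.99 and 11.18 in blastocysts (LFC 6.50 ± 0.99 SE, adjusted p = 0.00167). Foxa2, a forkhead factor of the endoderm, was not well above background on any morula array and was at least 25.5-fold higher in blastocysts (adjusted p = 1.38e-05). Gata4, which acts downstream of Gata6, rose from 7.32, 7.24 and 7.01 to 11.00, 9.89 and 11.51 (LFC 3.61). Pdgfra, the receptor that marks the lineage, rose by an LFC of 2.25. Gata6 was the exception in the list. This GATA factor, which starts the primitive endoderm program, stood at 14.13, 14.31 and 14.18 in morulae and 13.65, 13.42 and 14.36 in blastocysts, with an LFC of −0.39 (adjusted p = 0.210). Afp and Ttr, products of the later visceral endoderm, were well above background on all 3 arrays of neither stage and were not tested.

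Much of this list encodes the basement membrane and the machinery that secretes it. Lama1, the alpha chain of laminin-111, had the largest rise of all genes that were well above background on all 6 arrays. Its signals were 6.61, 7.31 and 6.29 in morulae and 15.62, 14.54 and 15.26 in blastocysts, a 338-fold difference (LFC 8.40 ± 0.36 SE, adjusted p = 2.70e-05). Serpinh1, a chaperone of collagen, rose by 6.68, and Sparc, a collagen-binding matrix protein, by 4.56. Of 20 tested genes of basement membrane and extracellular matrix, a list that shares these and other members with the primitive endoderm list, 13 rose and 0 fell, with a median LFC of 1.32. With the 75th percentile scaling 9 rose and 2 fell.

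The pluripotency and epiblast list split in both directions. Of 28 tested members, 8 rose (28.6%, near the 23.4% of all genes) and 7 fell (25%, against 8.18% of all genes). The other 13 did not pass the test, and the number that fell was 4 without Morula 2 and 3 without Blastocyst 1. The median LFC was 0.09, below that of all genes, and became −0.31 and −0.11 under the 75th percentile and quantile scalings. Pou5f1, which encodes the factor Oct4 and marks the inner cell mass, was 13.97, 14.62 and 14.81 in morulae and 13.09, 13.95 and 12.67 in blastocysts. The groups did not overlap, and Pou5f1 fell (LFC −1.23 ± 0.37 SE, adjusted p = 0.0271). The call was lost without Morula 2, Morula 3, Blastocyst 1 or Blastocyst 3, where the adjusted p was between 0.0646 and 0.106, and with no filter on dim probes (0.0654).

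Klf2, a Krüppel-like factor of naive pluripotency, fell (LFC −1.88), as did Fbxo15, an F-box gene expressed with pluripotency (LFC −1.29). Otx2, a homeobox factor of the later epiblast, fell from 13.02, 12.78 and 12.57 to 9.54, 11.16 and 9.84 (LFC −2.61), and its other probe gave −1.33. Nanog, the homeobox factor of the epiblast, rose by an LFC of 1.94 from 5.82, 5.13 and 4.98 to 7.96, 7.15 and 6.66. Sox2, the partner of Oct4, rose by 1.28 from 7.64, 8.34 and 7.91 to 9.18, 9.29 and 9.27. The Sox2 call was lost at 0.88 and 0.87 under the 75th percentile and quantile scalings and at 0.98 without Morula 1. Spp1, the secreted protein osteopontin, rose by 4.55, and Bmp4, a ligand, by 4.88. Fgf4, the ligand that epiblast cells send to the primitive endoderm, differed by an LFC of 0.38 (adjusted p = 0.0811), with overlapping arrays.

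In the lists of signaling pathways, 56.2, 30.0 and 30.4% of the tested members rose, against 23.4% of all genes. In the Nodal, BMP and Wnt list, 18 of 32 tested members rose and 1 fell, with a median LFC of 1.41. Dkk1, a secreted Wnt inhibitor, rose by 4.44, and Lefty1, a secreted Nodal inhibitor, was at least 7.15-fold higher, with no morula array well above background. Bmp15, an oocyte ligand, was the member that fell, by at least 2.09-fold, with no blastocyst array well above background. In the FGF and MAPK list, 6 of 20 rose and 0 fell, with a median of 0.64. Fgfr2, an FGF receptor of the trophectoderm, rose by 1.70. The targets and feedback inhibitors of the pathway Dusp6, Etv4 and Spry1 rose by 2.41, 2.05 and 2.02. In the Hippo list, 7 of 23 rose and 1 fell. Its median was 0.39, and −0.03 with the 75th percentile scaling. The Tead factors Tead3 and Tead2 rose by 2.73 and 2.22, Tead3 being well above background on 2 of 3 morula arrays, and Limd1, a LIM protein of the pathway, by 2.27. The co-activator Yap1 differed by 0.23 (adjusted p = 0.197), and Mob1b, a kinase cofactor, fell by 1.34. The other probe of Mob1b gave −0.66, and its call was lost at −0.78 with normexp background correction.

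Genes for ion and water transport, by which the trophectoderm fills the cavity, rose in 14 of 20 tested cases and fell in 1, with a median LFC of 1.44. Aqp8, a water channel, gave 3.08, 4.34 and 3.91 in morulae, 1 array being well above background, and 12.87, 12.26 and 12.76 in blastocysts, an LFC of 8.85. Atp1b1, the beta subunit of the sodium pump, rose by 1.60. Fxyd3, a regulator of the pump, was at least 5.38-fold higher, and Scnn1a, a subunit of the epithelial sodium channel, at least 4.23-fold. Aqp3 and Aqp9, also water channels, did not pass the test. The LFC of Aqp3 was −0.25 (adjusted p = 0.190). Aqp9 stayed just short of a fall of 1 unit (adjusted p = 0.0170) and passed with LFCs of −1.39 and −1.32 under the 75th percentile and quantile scalings. Slc12a2, a cotransporter of sodium, potassium and chloride, fell by 2.12.

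Of 26 genes of tight and adherens junctions and polarity, 9 rose (34.6%, against 23.4% of all genes) and 0 fell, with a median LFC of 0.62. Cldn3, a claudin of tight junctions, rose from 7.55, 7.74 and 7.99 to 12.33, 11.47 and 12.26 (LFC 4.26). Tjp3, a scaffold of tight junctions, rose by 2.41, whereas the related Tjp1 differed by 0.57. Cdh1, encoding E-cadherin, rose by 1.60. Cldn4 rose by 1.35 and lost its call at 0.91 with the 75th percentile scaling. Patj, a polarity scaffold, rose by 2.95 on its brightest probe, and its 4 other probes ranged from 0.04 to 4.26. Without Blastocyst 3 the LFC of Patj was 0.72 (adjusted p = 0.0975) and in the authors' series matrix it was 0.06, neither of them called. In the claudin family, 10 genes were tested, of which 2 rose and 2 fell. Cldn22 fell at least 3.89-fold, and Cldn34d fell by 2.21, being well above background on 2 of 3 blastocyst arrays. The Cldn34d call was lost without Morula 2 or Morula 3 (LFC −1.87 and −1.92). Of 7 desmosome genes, 4 rose and 0 fell, with Dsg2, a desmosomal cadherin, at 3.32 and Dsp, the plaque protein desmoplakin, at 1.74. Dsc2, another such cadherin, rose by 5.33 and was well above background on 1 of 3 morula arrays.

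Genes for attachment to the uterus and for receptors of maternal signals rose in 15 of 23 tested cases and fell in 2, with a median LFC of 1.47. Tmprss2, a serine protease of epithelial surfaces, was not well above background on any morula array and was at least 206-fold higher in blastocysts. Lifr, the receptor of the uterine cytokine LIF, was at least 45.3-fold higher, and its other 2 probes gave LFCs of 2.94 and 3.87. Timp3, an inhibitor of matrix proteases, rose by 6.34 and was well above background on 1 of 3 morula arrays. Plaur, the receptor of urokinase (LFC −1.40), and Sdc1, a syndecan (LFC −1.22), fell. Without Blastocyst 1 the LFC of Sdc1 was −0.76 and it was not called.

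**Figure D3:**
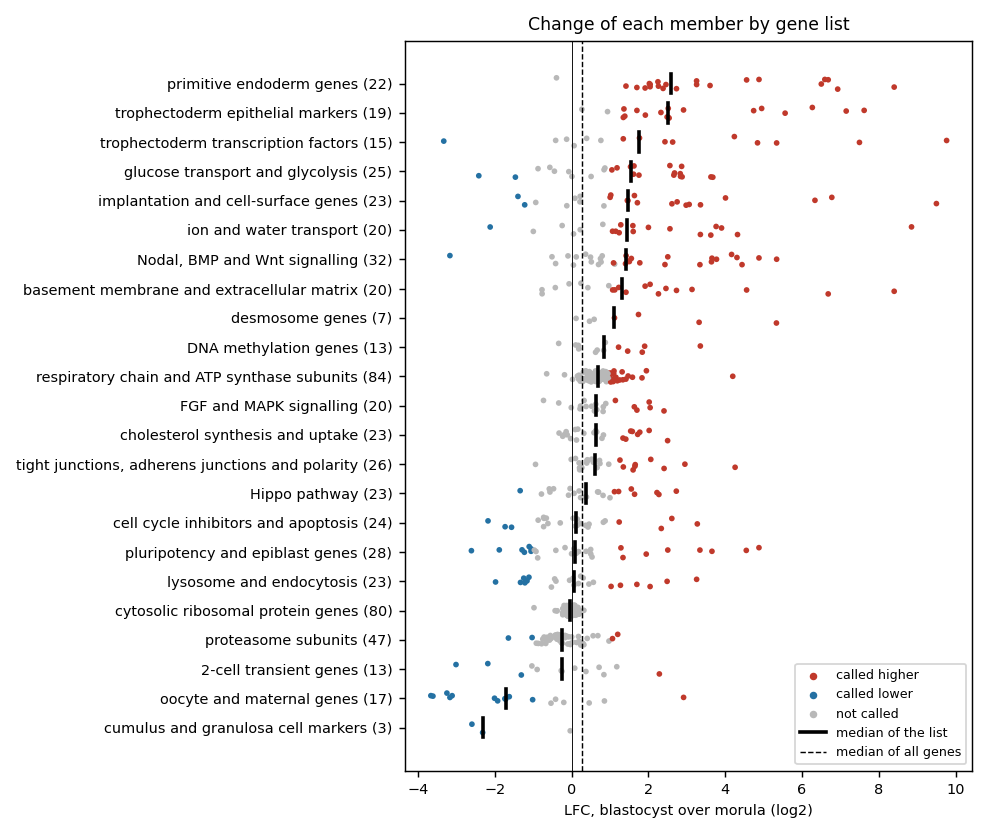
LFC of blastocysts over morulae (horizontal axis, log2) for each tested member of 23 gene lists (number of members in parentheses), red for genes that rose, blue for genes that fell and grey for the rest; the short black bar is the median of the list and the dashed line the median of all genes, 0.27. The lists of primitive endoderm (2.59) and trophectoderm epithelium (2.51) lie farthest to the right, the cytosolic ribosomal proteins sit in a tight group near 0 and the oocyte and maternal genes lie to the left (−1.72).

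Most glycolysis genes were higher in blastocysts. Of 25 members of the glucose transport and glycolysis list, all tested, 15 rose and 2 fell, with a median LFC of 1.53. Pfkm, a phosphofructokinase that commits glucose to glycolysis, rose from 6.94, 6.81 and 6.64 to 9.81, 9.28 and 9.94 (LFC 2.88). Pdk1, a kinase that turns off pyruvate dehydrogenase, rose by 3.68, with 1 of 3 morula arrays well above background. Slc16a3, the lactate exporter, rose by 3.63 ± 0.62 (SE) from 7.56, 7.27 and 6.19 to 9.66, 11.89 and 10.37. Ldha and Pgk1, chosen after their values were seen, encode the lactate dehydrogenase subunit of glycolytic tissues and phosphoglycerate kinase, and rose by 2.66 and 2.87. Ldhb, the other main lactate dehydrogenase subunit, fell from 9.21, 8.62 and 8.75 to 6.01, 6.83 and 6.48 (LFC −2.42).

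None of the 3 glucose transporters in the list passed the test as higher. Slc2a1, encoding GLUT1, was 12.12, 12.22 and 12.11 in morulae and 12.21, 13.97 and 12.80 in blastocysts, with overlapping arrays (LFC 0.84, adjusted p = 0.127). Without Blastocyst 1, Slc2a1 reached an LFC of 1.38 with an adjusted p of 0.0207. Slc2a3, encoding GLUT3, differed by 0.51, and Slc2a8 fell by 1.46. With the 75th percentile scaling the list gave 13 members that rose and 4 that fell.

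**Figure D4:**
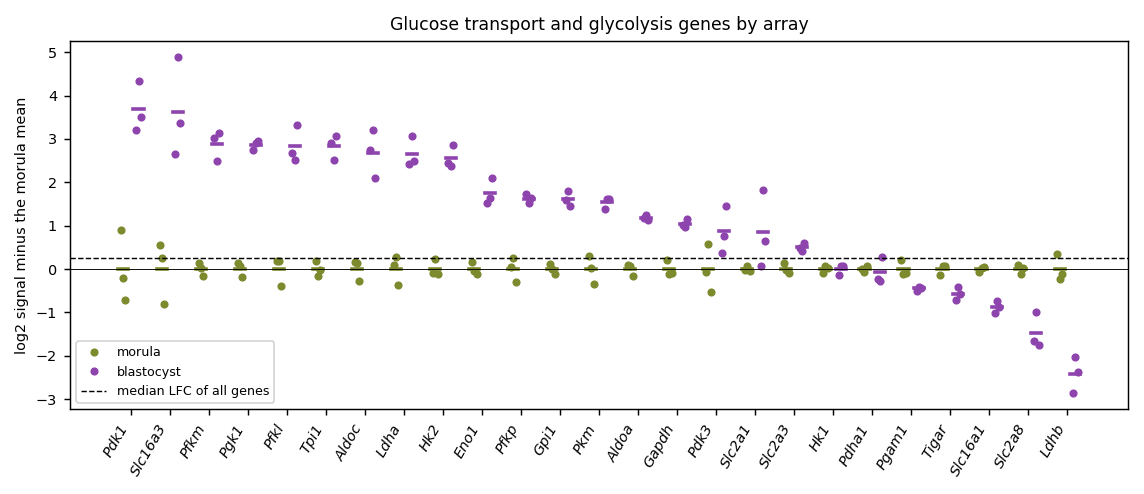
Log2 signal of each array minus the morula mean of the same gene (vertical axis) for the 25 glucose transport and glycolysis genes, ordered by LFC; points are arrays, short bars the means of 3 arrays and the dashed line the median LFC of all genes. From Pdk1 to Gapdh all blastocyst arrays lie above all morula arrays, Slc2a1 overlaps, and Slc2a8 and Ldhb lie below.

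The promoters of Ldha and Pgk1 are printed because hypoxia-response elements, the sites of HIF factors, are known from glycolytic genes. Capitals mark ACGTG, the core of such elements, on either strand (reverse complement CACGT), in the 250 bases before the start, printed 5′ to 3′ from the RefSeq annotation of GRCm38.p6. Ldha lies at chr7:46845554-46845803 and Pgk1 at chrX:106186850-106187099, both on the plus strand.
Ldha: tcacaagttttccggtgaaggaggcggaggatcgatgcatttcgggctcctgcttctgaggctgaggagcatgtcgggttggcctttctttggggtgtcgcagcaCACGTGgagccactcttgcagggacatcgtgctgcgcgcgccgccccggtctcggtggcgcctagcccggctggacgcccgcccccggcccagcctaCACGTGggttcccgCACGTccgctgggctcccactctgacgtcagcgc
Pgk1: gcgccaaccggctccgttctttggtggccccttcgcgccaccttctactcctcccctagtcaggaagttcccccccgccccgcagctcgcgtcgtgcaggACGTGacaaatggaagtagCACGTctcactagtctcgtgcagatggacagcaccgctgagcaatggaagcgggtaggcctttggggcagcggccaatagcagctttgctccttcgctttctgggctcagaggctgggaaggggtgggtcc
The window of Ldha held 5 matches counting both strands, where each CACGTG counts as 2, and that of Pgk1 held 2. Ldha has 2 starts in the annotation, and the window of the start not shown held no match. Over 11215 of the 14230 tested genes with an entry in the table, 24% held ACGTG, a gene with several starts being counted if any of them did. Among the genes that rose, 23% held it, and in the glycolysis list 11 of 24 did (45.8%). Within that list the share was 7 of 15 among members that rose and 4 of 9 among the others. A match is a run of letters and does not show binding.

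The promoters of Elf5 and Krt8 are shown for the trophectoderm lists, with GATAA, the core letters bound by GATA factors, in capitals on either strand (reverse complement TTATC). Elf5 lies at chr2:103423818-103424067 on the plus strand and Krt8 at chr15:102004343-102004592 on the minus strand, and the bases are those of the gene's own strand.
Elf5: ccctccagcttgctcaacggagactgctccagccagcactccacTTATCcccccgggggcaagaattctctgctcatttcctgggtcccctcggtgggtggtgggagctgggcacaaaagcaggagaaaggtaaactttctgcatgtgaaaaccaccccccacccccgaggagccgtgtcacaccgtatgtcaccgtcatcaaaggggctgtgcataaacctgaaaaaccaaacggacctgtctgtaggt
Krt8: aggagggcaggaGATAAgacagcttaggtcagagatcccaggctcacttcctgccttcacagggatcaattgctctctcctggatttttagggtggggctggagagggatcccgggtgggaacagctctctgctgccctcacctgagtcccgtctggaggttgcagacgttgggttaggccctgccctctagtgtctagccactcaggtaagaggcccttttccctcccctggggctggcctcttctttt
Each window held 1 match. Elf5 has 2 starts in the annotation, and the window of the start not shown held no match. GATAA was found in 18.6% of all genes and 19.1% of those that rose, in 1 of 9 trophectoderm transcription factors, in 4 of 15 trophectoderm epithelial genes and in 3 of 14 primitive endoderm genes. The TFAP2 letters GCCNNNGGC were held by 22.6% of all genes and by 4 of 9, 5 of 15 and 5 of 14 members of these lists in the same order. The TEAD letters GGAATG were held by 13.3% of all genes and by 2 of 9, 0 of 15 and 1 of 14.

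Of 84 subunits of the respiratory chain and ATP synthase, 19 rose (22.6%, near the 23.4% of all genes) and 0 fell with a median LFC of 0.68, and with the 75th percentile scaling 5 rose and 1 fell with a median of 0.24. Without Morula 1, 11 subunits rose. Ndufs4, a subunit of complex I, rose by 1.95 and Sdhd, a subunit of complex II, by 1.83. Ndufa4l2, a paralog of a respiratory subunit, was at least 7.51-fold higher. In the cholesterol list, 8 of 23 rose (34.8%, against 23.4% of all genes) and 0 fell, with a median of 0.63. Srebf2, the transcription factor that controls the pathway, rose by 2.50 on its brightest probe and differed by 0.85 on the other. The synthesis enzyme genes Tm7sf2 and Mvk rose by 2.02 and 1.78. Among 255 solute carrier genes, 88 rose (34.5%, against 23.4% of all genes) and 29 fell (11.4%, against 8.18%), with a median of 0.50. With the 75th percentile scaling 60 rose and 45 fell. Slc15a2, a peptide transporter, rose by 8.42 ± 1.12 (SE) with 1 of 3 morula arrays well above background. Slc25a41, a mitochondrial carrier, fell by 3.03.

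Lists of general cell functions had few called members. Of 80 cytosolic ribosomal protein genes, 0 rose and 0 fell, with LFCs between −0.98 and 0.32 and a median of −0.04. Of 47 proteasome subunits, 2 rose and 2 fell with a median of −0.25, and 0 rose and 12 fell with the 75th percentile scaling. Psme1 and Psme2, subunits of an activator of the proteasome, rose by 1.07 and 1.20 and were not called with the 75th percentile scaling, Psme1 also not without Morula 1 (0.97) or Blastocyst 3 (0.85), and Psmb10, an immunoproteasome subunit, fell by 1.65. Psmc3ip, which the name pattern took in although it encodes a protein of meiotic recombination, fell by 1.03 and was not called without Morula 2, Morula 3 or Blastocyst 1 (LFC from −0.99 to −0.83). Of 52 histone genes, 5 rose (9.62%, against 23.4% of all genes) and 1 fell (1.92%, against 8.18%). Without Morula 1, 3 rose. With the 75th percentile scaling 2 rose and 5 fell, and with quantile normalization 2 rose and 2 fell. The linker histone genes H1f0 and H1f10 rose by 2.10 and 1.85, H1f0 with 1 of 3 morula arrays well above background, and the oocyte linker histone H1f8 fell by 1.74.

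In the lysosome and endocytosis list, 6 of 23 rose (26.1%, near the 23.4% of all genes) and 6 fell (26.1%, against 8.18% of all genes), and 3 fell with the mean of a gene's probes. Those with the largest rise, Dab2, Lrp2 and Amn, encode an endocytic adaptor, its receptor megalin and a partner of the receptor cubilin, and rose by 3.26, 2.49 and 2.04. The LFC of Lrp2 was between 0.11 and 0.30 on its 2 other probes. Tfrc, the transferrin receptor, fell by 1.98. The acid hydrolase genes Ctsa and Gaa fell (LFC −1.25 and −1.33), and the other probe of Ctsa gave 0.14. Of 24 genes of the cell cycle and apoptosis, 4 rose (16.7%, against 23.4% of all genes) and 3 fell (12.5%, against 8.18% of all genes). With the 75th percentile scaling 3 rose and 8 fell, and with quantile normalization 3 rose and 5 fell. Under these scalings 15.3 and 11.0% of all genes fell. Cdkn1b, the cyclin-dependent kinase inhibitor p27, rose by 2.34, the proapoptotic Bak1 by 2.61, and Casp8, an initiator caspase, by at least 1.98-fold. The G1 cyclin genes Ccne1 and Ccnd1 fell (LFC −2.18 and −1.73), as did Bcl2l11, a BH3-only gene (LFC −1.56). The other probe of Bcl2l11 gave −0.46. The medians of these lists were 0.06 and 0.12, and −0.39 and −0.33 with the 75th percentile scaling.

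DNA methylation genes rose in 5 of 13 cases (38.5%, against 23.4% of all genes) and fell in 0, with a median LFC of 0.84. With the 75th percentile scaling 4 rose, where 15.8% of all genes did. The de novo methyltransferase gene Dnmt3b rose by 1.46 and its cofactor Dnmt3l by 1.22, the latter without a call with the 75th percentile scaling at 0.78. Dnmt3a, the other de novo enzyme, differed by 0.84 (adjusted p = 0.00317). Tdg, a glycosylase of active demethylation, rose by 3.35, and Mbd2, a methyl-CpG binding protein, by 1.90. The 2 other probes of Tdg gave 1.81 and 3.19, and the other probe of Mbd2 gave 5.78. Of the class I deacetylases, the family that the inhibitors of this series act on, Hdac1 differed by −0.88 (adjusted p = 0.00140) and Hdac2 by −0.06 (adjusted p = 0.714). Hdac3 rose by 1.15. With the 75th percentile scaling Hdac1 passed as a fall of −1.33. It also passed without Morula 1 or Blastocyst 2, at −1.02 each. Hdac3 was not called with the 75th percentile scaling (0.75), quantile normalization (0.74), smooth quantile normalization over the 6 arrays alone (0.97) or normexp background correction (0.92).

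Most transcripts of oocyte and maternal genes were lower in blastocysts. Of 17 tested oocyte and maternal genes, 11 fell (64.7%) and 1 rose, with a median LFC of −1.72, and 11 fell and 1 rose under either other scaling. With normexp background correction 7 fell. Padi6, a component of the oocyte cytoplasmic lattices, gave 11.24, 11.12 and 11.34 in morulae and 7.77, 8.55 and 7.64 in blastocysts (LFC −3.25 ± 0.25 SE, adjusted p = 0.000118). Oosp1, a secreted oocyte protein, fell (LFC −3.67), as did Zp1, a protein of the zona pellucida (LFC −3.61), each with 2 of 3 blastocyst arrays well above background. Ooep, another member of the maternal complex, was the exception and was at least 2.98-fold higher in blastocysts, where it stood at 5.94, 6.07 and 5.95. Genes with a transient 2-cell peak fell in 3 of 13 cases (23.1%, against 8.18% of all genes) and rose in 1 (7.69%, against 23.4%). Duxbl1, a double homeobox gene, fell by 2.18. Zscan4c, of a family with near-identical members, rose by 2.29, and this call was lost under 10 of the alternatives, among them the omission of any 1 array except Morula 3.

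Cumulus and granulosa cell markers were used as a check for cells of the ovary. Of 13 markers, 3 were tested, while the other 10, among them Amh, Fshr and Has2, were well above background on all 3 arrays of neither stage. The anti-Müllerian hormone receptor gene Amhr2 and the steroid enzyme gene Hsd17b1 fell, with LFCs of −2.32 and −2.60, from means of 12.19 and 8.19 in morulae. The third tested marker, Foxl2, differed by −0.04 and was not called. Amhr2 had means of 5.66 in germinal vesicle oocytes and 13.17 in 8-cell embryos. In the same oocytes the means of Hsd17b1 and Foxl2 were 5.41 and 13.93. Hsd17b1 had risen by 2.99 between the 8-cell and the morula stage. The part of such cells in the results was not tested.

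Beyond the lists, the largest rises among genes well above background on all 6 arrays were those of Lama1, B3gnt5, Tmsb4x, BC053393, Tspan8, Serpinh1, Tceal9, Cdx1, Lgals1 and Ndrg1, with LFCs from 6.27 to 8.40. B3gnt5 builds glycolipid chains, Tmsb4x encodes the actin-binding thymosin beta 4, Cdx1 is the homeobox relative of Cdx2, and Lgals1 encodes a galectin. Tmsb4x rose from 8.25, 7.84 and 7.90 to 15.95, 15.00 and 15.18. Among genes well above background on no morula array, the largest bounds included those of BC051665 (at least 1505-fold higher), H19 (at least 505-fold), Elf5 and Tmprss2. H19, the imprinted noncoding RNA, rose from 3.09, 4.12 and 4.14 to 14.38, 12.59 and 13.34, and its 5 other probes had LFCs between 6.63 and 9.58.

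The largest falls among genes well above background on all 6 arrays were those of Hcrt, Gm11517, Stmn3, Pi16, Vpreb3, Col9a2, Obox6, Efhd1, Prr19 and 0610005C13Rik, with LFCs from −5.80 to −4.01. Hcrt, the gene of the hypocretin neuropeptides, gave 11.23, 10.82 and 11.66 in morulae and 4.94, 6.11 and 5.27 in blastocysts, a 55.6-fold decrease. Obox6, a homeobox gene of a family named for oocytes, went from 15.03, 14.59 and 14.94 to 10.62, 10.75 and 10.30, and its other probe gave −4.38. Its mean was 5.78 in germinal vesicle oocytes and 15.87 in 8-cell embryos. Stmn3 encodes a stathmin of microtubules, Col9a2 a chain of collagen IX and Vpreb3 a protein of B-cell precursors. Among genes well above background on no blastocyst array, Tmem145 fell at least 47.4-fold, Cthrc1 29.7-fold, Tmigd1 15.6-fold, Gm5485 11.9-fold and Klrb1a 11.2-fold.

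The step from the 8-cell embryo to the morula was set beside the step from morula to blastocyst. Both use the same 3 morula arrays, so that each step's values are given side by side and the difference of the steps was tested gene by gene over 9 arrays. From the 8-cell stage to the morula, 5150 genes rose (36.2%) and 692 fell (4.86%), with a median LFC of 0.66. Genes entered these counts by their signal in morulae or blastocysts, so that genes well above background at the 8-cell stage and in neither later stage are left out of the falls, while genes dark at the 8-cell stage could count as rises. The later step exceeded the earlier one in 1590 genes (11.2%) and fell short of it in 3836 genes (27.0%). Positive differences made up 29.3% of those called, against 38.7 and 44.7% under the 75th percentile and quantile scalings, and the median difference was −0.45, against −0.25 and −0.09. The mean correlation over genes was 0.926 between 8-cell and morula arrays and 0.807 between 8-cell and blastocyst arrays.

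Trophectoderm genes differed between the steps in both directions. Of 15 tested transcription factors, the difference was positive in 4 and negative in 4. Of 19 epithelial markers, it was positive in 7 and negative in 8. Over all genes, 11.2% of the differences were positive and 27.0% negative, and the negative count of the transcription factors was near that share. Several of these genes rose more into the morula than into the blastocyst. Cdx2 rose by 4.96 into the morula and 1.35 into the blastocyst, a difference of −3.61 (adjusted p = 0.000837). The same order held for Gata3 (4.47 and 1.77), Krt8 (5.89 and 2.51) and Krt18 (5.07 and 2.52), all with a called difference. Gata2 and Elf5 were well above background on 0 of the 8-cell arrays, and Elf5 on 0 of the morula arrays too, so that the size of their earlier step and of the difference is not given. For Eomes, well above background on 2 of 3 8-cell arrays, the steps were 4.02 and 4.24 and the difference was not called (0.22, adjusted p = 0.794).

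Other genes differed between the steps as well, among them Lrp2 and Tspan8 of the trophectoderm epithelial markers. The LFCs of the earlier and the later step were 4.31 and 0.84 for Dnmt3a, 5.07 and 0.84 for Slc2a1, 4.54 and 0.51 for Slc2a3, and 9.83 and 2.49 for Lrp2, each with a called negative difference. Dnmt3a was well above background on 2 of 3 8-cell arrays and Lrp2 on 1 of 3. Sox2 was well above background on 0 of the 8-cell arrays and on all 3 morula arrays, and the size of its earlier step is not given. They were 2.09 and 8.40 for Lama1, 0.83 and 7.15 for Tspan8, −0.12 and 4.88 for Bmp4, 0.13 and 2.88 for Pfkm, and 0.22 and 1.70 for Fgfr2, each with a called positive difference. Of these 5 genes, Lama1 was well above background on 2 of 3 8-cell arrays and the others on all 3. Some genes turned between the steps. Gata4 fell by 3.93 from an 8-cell mean of 11.12 and then rose by 3.61, so that its morula mean of 7.19 was its lowest among the 8 stages. Otx2 rose by 4.45 and fell by 2.61, and Plaur rose by 1.95 and fell by 1.40. BC051665 was well above background on all 3 8-cell arrays (mean 7.81), on no morula array and again on all 3 blastocyst arrays (mean 15.00).

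**Figure D5:**
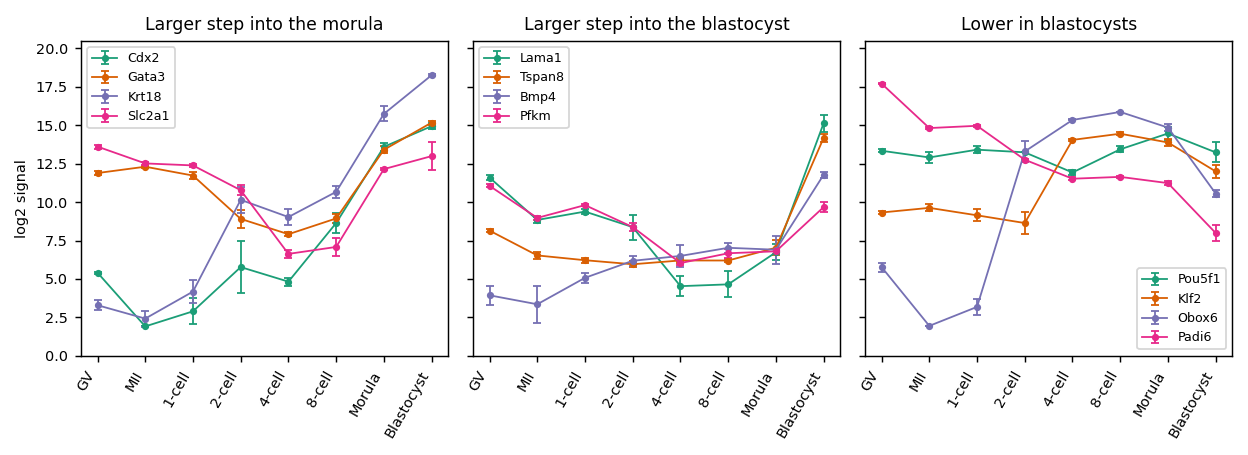
Mean log2 signal (± SD over 3 arrays, vertical axis) of 12 genes over the 8 untreated stages from germinal vesicle (GV) oocyte to blastocyst. Left, Cdx2, Gata3, Krt18 and Slc2a1 make the larger step into the morula; middle, Lama1, Tspan8, Bmp4 and Pfkm make the larger step into the blastocyst; right, Pou5f1, Klf2, Obox6 and Padi6 are lower in blastocysts than in morulae, with Padi6 falling from 17.71 in GV oocytes to 7.99. Before the 8-cell stage some of these genes, such as Cdx2 and Obox6 in MII oocytes, were well above background on 0 arrays, and the plotted level there is background.

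The counts of the lists are to be read against the shares of all genes, 36.2% rising in the earlier step, 23.4% rising in the later one, and 27.0% negative and 11.2% positive differences. Of the 26 junction genes, 18 rose into the morula and 9 into the blastocyst, and the difference of the steps was negative in 8 genes, near the share of all genes, and positive in 1. The 20 basement membrane genes all rose into the morula, and 13 of them rose again. Among 47 proteasome subunits, 19 rose into the morula, 2 into the blastocyst, and 31 had a negative difference. Among 84 respiratory chain subunits, 40 rose in the earlier and 19 in the later step, with a negative difference in 9 and a positive one in 1, both below the shares of all genes. The 20 ion and water transport genes behaved otherwise, with 7 that rose into the morula and 14 into the blastocyst, and 9 positive against 2 negative differences. In the primitive endoderm list, 15 and then 21 of 22 genes rose, with 10 positive and 4 negative differences. The oocyte and maternal list lost signal in both steps, with 11 of 17 members falling in each.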

How the data were processed

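The authors hybridized Cy3-labeled cRNA of 100 embryos per array to 1-color Agilent mouse arrays with 60-mer probes and read them with Feature Extraction, given as version 9.5.1.1 in the submitters' processing notes and as 10.7.1.1 in the file headers. The intensity values the authors deposited are background-subtracted by that software and not scaled between arrays. The authors also deposited a matrix of log2 values that they had normalized and filled in, and it served only as an alternative.

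Log2 intensities of the 24 untreated arrays were brought together by smooth quantile normalization, written for this work with a window of 0.05. Probes well above background on all 3 arrays of at least 1 of the 2 stages were kept (27419 probes, 19314 with a gene name), nothing was filled in, and the brightest probe stood for each gene. The fit used limma 3.58.1 in R 4.3.3 with data.table (1.17.8) on the 6 arrays, and on 9 arrays for the difference of the steps, with Benjamini-Hochberg adjustment over all genes tested and no covariates. The pipeline was tested on simulated data.

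Where a stage was well above background on none of its arrays, the fold was taken against a floor, on each array the dimmest signal flagged as well above background or the gene's own signal if brighter. Gene lists (20) and families taken by symbol (7) were described by counts and medians only. The genes and lists were chosen with earlier results of these data known. Named are the 10 largest rises and falls among genes well above background on all 6 arrays, the 5 largest bounds each way, the 3 largest rises and falls of each list, and 30 defining genes. Some of the genes this rule selects are not reported here. The methods' filter and the alternatives of scaling, background correction, probe choice, slide and left-out arrays are given in the closing section. The 15 treated arrays were not used. With 3 arrays per stage, their number limits the precision.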

Additional observations from a re-analysis of the deposited data

How the results depend on the processing

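The counts of genes higher and lower in blastocysts stayed within 1.5 times of 3329 and 1164 under the alternatives listed here except 2. Scaling to the 75th percentile gave 2174 lower genes, and the authors' series matrix, which holds fewer genes (10828 tested), gave 1831 higher and 743 lower. Among the others, normexp background correction with an offset of 50 gave 2278 and 778, smooth quantile normalization over the 6 arrays alone 2876 and 1392, and no filter 3534 and 1191. Differences of at least 1 within slides 1, 2 and 3 numbered 3451, 3204 and 3838 higher and 1548, 988 and 1402 lower. With 1 array left out at a time, the counts ran from 2894 (without Blastocyst 3) to 3871 for higher genes, from 888 (without Blastocyst 1) to 1372 for lower genes, and from 4427 (without Morula 2) to 5927 for genes whose steps differed, against 5426 with all arrays. The deviations of same-numbered arrays from their stage means correlated at 0.129, 0.0994 and 0.00668. Those of differently numbered arrays correlated between −0.113 and 0.0163. With 3 arrays per stage these values cannot decide whether the replicate numbers pair the arrays, and no pairing was used in the main fit. With the replicate number, which is also the slide, as a block, 3325 genes were higher, 1178 lower, and 5459 differed between the steps.

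Of the 138 named genes that were called, 28 lost the call under at least 1 of 18 alternatives, and 0 of the named genes reversed. Those lost with 1 array left out were Arg2, Cldn34d, H4c8, Patj, Pou5f1, Psmc3ip, Psme1, Sdc1, Sox2, Zfp57 and Zscan4c. Genes near background depended on the background correction. With normexp the LFC was 0.79 for Casp8, 0.82 for Ooep and −0.61 for Bmp15, none of them called, and the cause was not tested. In the matrix 11 primitive endoderm genes were tested and 10 rose, and 9 of 9 trophectoderm epithelial markers rose. With the mean of a gene's probes in place of the brightest, Lrp2, Ctsa and Gaa were not called. The folds given as bounds hold for the main processing only. For Elf5, Tmprss2, BC051665 and H19 these bounds were 8.42, 7.69, 10.56 and 8.98 log2 units. The smallest LFCs of these genes under any alternative were 6.44, 5.86, 8.74 and 7.07. For Tmem145 the bound was a fall of 5.57 and the smallest fall an LFC of −3.74. Signal over background limits what can be said of the genes given only as bounds.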
